A study of Rattus norvegicus with 12 samples.

Results

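Rat H9c2(2-1) cells that had been deprived of glucose were compared with the same cells in complete medium, gene by gene, across the whole transcriptome. H9c2(2-1) is a myoblast line derived from embryonic rat heart, and the labels call the cells wild type myocardial cells of heart. The glucose-deprived (GD) group held 3 libraries of cells kept 36 h without glucose. The control group held 3 libraries of cells in high-glucose DMEM with 10% fetal bovine serum. The labels name no serum for the GD group, so the medium may have differed in more than glucose, and no agent besides the deprivation is named for it. The other 6 of the 12 libraries were deprived cells given empagliflozin, which entered the model only through the shared estimate of the spread. Of the 35966 rows of the table, the 12314 genes at 1 TPM (a transcript abundance scaled for length) or more in at least 3 of the 12 libraries were tested. Nothing in the labels tells whether replicate libraries came from separate cultures. The p-values therefore measure the spread between these libraries, which may be technical.

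Cells that lose glucose or amino acids, or whose endoplasmic reticulum (ER) cannot fold and glycosylate proteins, reduce general translation by phosphorylating the initiation factor eIF2alpha, which favours the translation of the transcription factor ATF4. ATF4 and its partners act through amino acid response elements in the promoters of genes for amino acid supply, tRNA charging and cell death. In parallel, ATF6 and XBP1 act on ER stress elements in chaperone promoters, and the factors TFEB and TFE3 act on genes of lysosomes when the nutrient kinase mTORC1 is inactive. In muscle-type cells, genes of contraction and matrix depend on serum, adhesion and actin tension through SRF and YAP with TEAD.

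Levels are given in TPM, which are shares of a library's own total, so the level of a gene also depends on all others. The deposited columns summed to 959192.1 to 969724.1 in GD libraries, against 946400.5 to 967813.5 in control libraries. Each fold change is the GD mean minus the control mean of log2(TPM + 1), which understates the change of low genes, and is printed with its standard error (SE). Adjusted p-values are from limma with Benjamini-Hochberg adjustment over all tested genes, and "rose" or "fell" is written of a gene whose adjusted p was under 0.05. In all, 10042 genes (81.5%) passed, 1722 upward (14%) and 8320 downward (67.6%), and these shares are the background for every count below. The typical tested gene was lower in GD, with a median log2 fold change of -0.65. At least 2-fold changes that passed were upward in 464 genes (3.77%) and downward in 4193 (34.1%). The GD and control libraries did not overlap for 82.4% of tested genes. After median-of-ratios scaling, which sets the typical gene to no change, 4683 genes (38%) were higher and 4768 (38.7%) lower, 76.8% in all. A fall smaller than that median can therefore turn with the scaling, as it did for 9.15% of tested genes. At least 16-fold changes were seen upward in 6 genes and downward in 90.

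The GD libraries were made of fewer genes than the control libraries. Genes that together held 50% of the TPM numbered 91, 98 and 80 in GD libraries, against 237, 224 and 214 in control libraries. Cytosolic ribosomal protein genes held 34.6%, 32.8% and 36.2% of the TPM in GD libraries, against 17.2%, 17.2% and 17.8% in control libraries. The ferritin genes Fth1 and Ftl1, which encode the iron storage shell, held 4.52%, 4.74% and 5.25% in GD libraries, against 1.48%, 1.54% and 1.53% in control libraries. Collagen and matrix genes, without the row NEWGENE_621351 for collagen type I alpha 2, held 0.392%, 0.491% and 0.307% in GD libraries, against 3.03%, 3.24% and 3.16% in control libraries. Between 10551 and 10951 genes reached 1 TPM in GD libraries, against 12018 to 12074 in control libraries. GD replicate 3 had the highest ribosomal and ferritin shares and the fewest genes at 1 TPM. In such bulk samples, fewer cells of a type and less RNA per cell cannot be told apart, and TPM keep no record of depth.

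**Figure D1:**
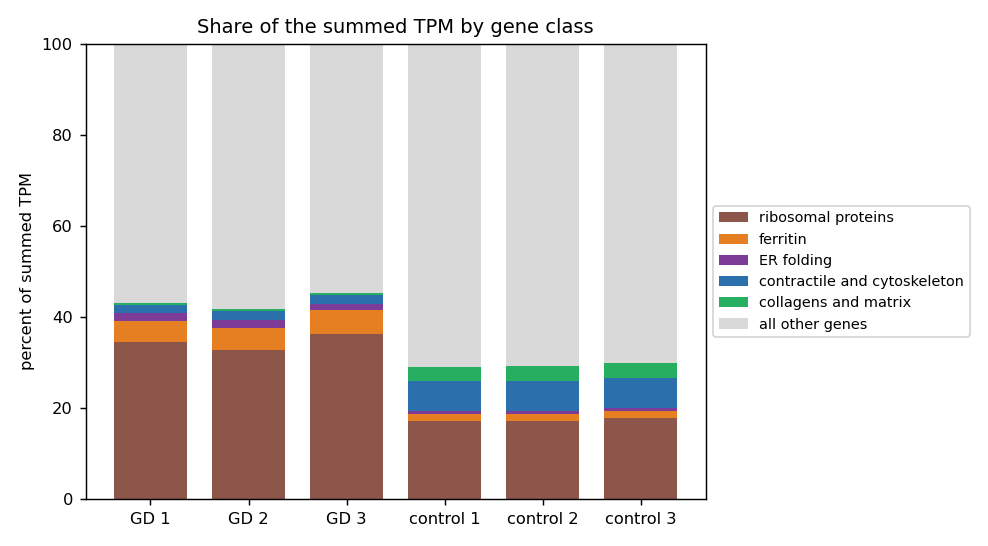
Percent of the summed TPM (vertical axis) held by 5 gene classes and by all other genes in each of the 3 GD and 3 control libraries (bars). Ribosomal protein genes took 32.8% to 36.2% of GD libraries, against 17.2% to 17.8% of control libraries, while contractile and matrix classes were thinner in all 3 GD libraries.

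Among the regulators of the amino acid stress response, 10 of 23 tested genes rose and 7 fell as deposited, and 17 were higher and 5 lower with median-of-ratios scaling. The list's median log2 fold change was 0.10. Trib3, a pseudokinase that restrains ATF4 and AKT, had 313, 349 and 291 TPM in GD libraries, against 51.1, 67.3 and 63.0 TPM in control libraries. Its 3 GD libraries all lay above its 3 control libraries (log2 fold change 2.38, SE 0.13, adjusted p = 2.62e-09 by limma). Ppp1r15a, which encodes the stress-induced subunit GADD34 of the phosphatase that removes phosphate from eIF2alpha, had 364, 401 and 358 TPM in GD libraries, against 51.5, 52.6 and 50.5 TPM in control libraries. This was a clear separation with little spread in either group (2.83, SE 0.12, adjusted p = 2.62e-10). The transcript of Atf4 itself had 812, 849 and 782 TPM in GD libraries, against 368, 367 and 369.9 TPM in control libraries (1.14, SE 0.06, adjusted p = 1.15e-09). Gdf15, which encodes a stress-induced circulating hormone, rose by 2.58 on the log2 scale (SE 0.21). Chac1, an enzyme that breaks down glutathione, rose less (log2 fold change 0.4, SE 0.12, adjusted p = 0.00741), as did Nupr1, a stress-induced chromatin protein (0.56, SE 0.12).

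Of the 4 kinases that phosphorylate eIF2alpha, 3 fell and none rose, a share near that of all tested genes, and 1 was higher and 3 lower with median-of-ratios scaling. Eif2ak4, the amino acid sensor GCN2, fell by 1.59 on the log2 scale (SE 0.12), and Eif2ak1, the heme-regulated kinase, fell by 1.07 (SE 0.10). Ddit4, an inhibitor of mTORC1 that many stresses induce, also fell, with 26.7, 32.1 and 28.2 TPM in GD libraries, against 89.5, 87.7 and 90.1 TPM in control libraries. Its groups did not overlap, and its log2 fold change was -1.59 (SE 0.10).

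The promoters of 3 genes that rose show the amino acid response element that ATF4 dimers recognise. They run from 250 bases before to 50 bases after the start in RefSeq annotation of GRCr8, 5′ to 3′ on the gene's strand, with the element TGATGNAA, on either strand, in capitals. Trib3 lies at chr3:161275484-161275783 on the minus strand, Chac1 at chr3:126795881-126796180 on the plus strand and Yars at chr5:146819913-146820212 on the plus strand.

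Trib3: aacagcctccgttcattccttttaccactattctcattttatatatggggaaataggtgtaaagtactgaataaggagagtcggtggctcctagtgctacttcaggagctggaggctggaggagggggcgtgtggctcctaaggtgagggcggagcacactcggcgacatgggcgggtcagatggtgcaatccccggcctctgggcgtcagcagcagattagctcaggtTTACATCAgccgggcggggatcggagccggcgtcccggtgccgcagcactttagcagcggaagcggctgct

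Chac1: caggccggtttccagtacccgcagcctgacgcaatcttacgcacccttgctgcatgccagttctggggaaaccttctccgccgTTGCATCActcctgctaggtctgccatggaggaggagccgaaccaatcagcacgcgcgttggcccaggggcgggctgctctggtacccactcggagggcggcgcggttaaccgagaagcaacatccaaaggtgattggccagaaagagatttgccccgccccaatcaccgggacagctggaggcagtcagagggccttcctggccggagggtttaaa

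Yars: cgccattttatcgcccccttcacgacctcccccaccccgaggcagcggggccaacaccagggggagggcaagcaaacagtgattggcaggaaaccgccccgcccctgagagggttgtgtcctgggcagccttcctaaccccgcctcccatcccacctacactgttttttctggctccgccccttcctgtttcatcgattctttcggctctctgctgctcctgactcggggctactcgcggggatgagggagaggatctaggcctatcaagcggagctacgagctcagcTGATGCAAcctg

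The match began 21 bases before the start in Trib3 and 167 bases before it in Chac1, and 38 bases after it in Yars. Of 9163 tested genes with a promoter matched by symbol or synonym, 2.08% held the element. It was present in 4 of 19 promoters of stress regulators (Nupr1, Trib3, Chac1 and Ppp1r15b) and in 7 of 17 promoters of cytosolic aminoacyl-tRNA synthetases (Aars, Cars, Iars, Mars, Nars, Tars and Yars). Among these 7 synthetase genes Yars was the only one that rose as deposited. After median-of-ratios scaling, 18 of all 20 tested cytosolic synthetases were higher and none lower. A match is a run of letters, and whether any factor was bound there was not measured.

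The aminoacyl-tRNA synthetases, which join each amino acid to its tRNA, differed from enzyme to enzyme. Of the 20 cytosolic enzymes, 4 rose and 9 fell as deposited, with a median log2 fold change of -0.06, and 18 were higher and none lower with median-of-ratios scaling. Wars, for tryptophan, had 179.7, 189 and 149.8 TPM in GD libraries, against 80.5, 81.1 and 81.4 TPM in control libraries. Qars, for glutamine, had 189, 192 and 189 TPM in GD libraries, against 99.05, 103 and 96.2 TPM in control libraries. Neither gene's groups overlapped (log2 fold change 1.08, SE 0.12, and 0.93, SE 0.06). Sars, for serine (0.78, SE 0.07), and Yars, for tyrosine (0.38, SE 0.10), were the other 2 that rose. The deepest fall among the cytosolic enzymes was of Iars, for isoleucine (-0.83, SE 0.14). Of the 17 mitochondrial enzymes, 1 rose and 12 fell, with a median of -0.72, whereas 6 were higher and 5 lower with median-of-ratios scaling. The only one that rose was Mars2, for methionine (0.45, SE 0.13).

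Amino acid transport moved unevenly. Of 20 tested transporters 3 rose and 13 fell, with a median of -0.92, and 7 were higher and 9 lower with median-of-ratios scaling. Slc3a2, the shared heavy chain of several amino acid exchangers, had 1492, 1627 and 1369 TPM in GD libraries, against 284, 311 and 298 TPM in control libraries. Its light chain Slc7a5, which carries large neutral amino acids, had 90.5, 114 and 92.2 TPM in GD libraries, against 68.3, 77.8 and 74.0 TPM in control libraries. The heavy chain's groups were far apart (2.32, SE 0.11, adjusted p = 8.75e-10), while the light chain's were close without overlap (0.42, SE 0.14, adjusted p = 0.0123). Without GD replicate 2 the Slc7a5 log2 fold change was 0.31 and did not pass (adjusted p = 0.0612 by limma). The glycine transporter Slc6a9 rose too (1.66, SE 0.14). The glutamate transporter Slc1a3 fell by 2.33 (SE 0.12) and the neutral amino acid transporter Slc38a4 fell by 2.34 (SE 0.13).

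Of 18 enzymes of serine, one-carbon, asparagine and proline synthesis, 2 rose and 13 fell, with a median of -1.03, and 7 were higher and 10 lower with median-of-ratios scaling. The 2 that rose were Mthfd2, a mitochondrial folate enzyme (0.69, SE 0.07), and Psph, the last enzyme of serine synthesis (0.54, SE 0.11). Psat1, the enzyme before it, had 50.9, 52.7 and 44.4 TPM in GD libraries, against 129, 130.4 and 126 TPM in control libraries. Its change of -1.37 (SE 0.08) left no overlap between the groups. Gpt2, which makes alanine from pyruvate in mitochondria, fell by 1.99 (SE 0.15), and the proline enzyme Aldh18a1 (-1.53) fell as well. Asns, the asparagine synthetase and a textbook ATF4 target, had 36.9, 40.3 and 33.4 TPM in GD libraries, against 45.5, 47.8 and 49.2 TPM in control libraries, a change of -0.36 (SE 0.09) that becomes 0.39 after median-of-ratios scaling.

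**Figure D2:**
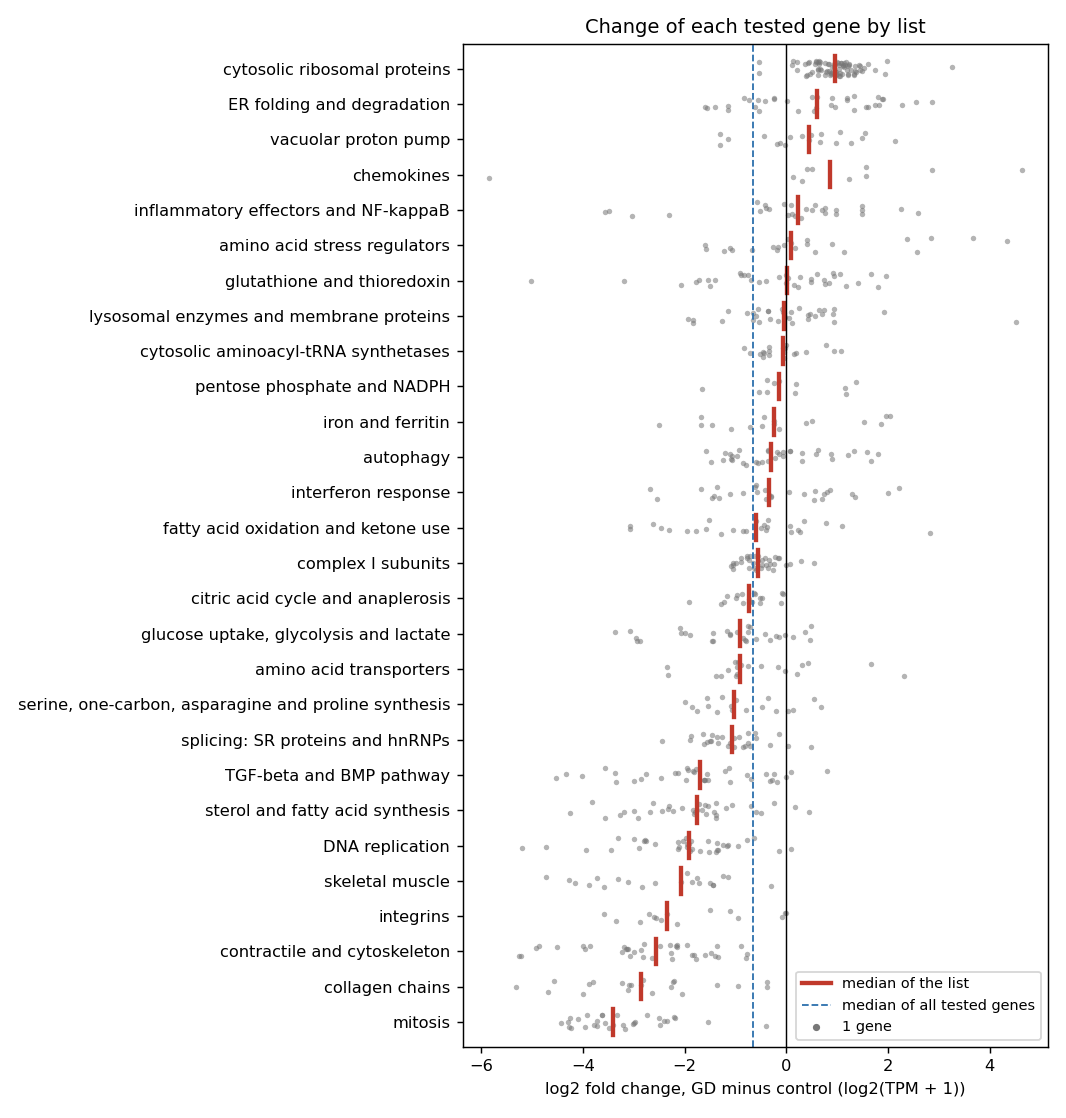
Log2 fold change, GD minus control on the log2(TPM + 1) scale (horizontal axis), of every tested gene (grey points) of 28 gene lists (rows), with each list's median (red bar) and the median of all tested genes (dashed line, -0.65). Ribosomal, ER folding and chemokine lists have medians above 0, and collagen, contractile, integrin and mitosis lists have medians below -2.

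Chaperones of the ER, which fold secreted and membrane proteins, rose together. Of 15 tested chaperones and cochaperones 13 rose and 2 fell, with a median of 1.75, and of 36 genes of ER folding and degradation in all 22 rose and 12 fell (27 higher and 5 lower with median-of-ratios scaling). Hspa5, which encodes the chief chaperone BiP, had 2037, 2199 and 1509 TPM in GD libraries, against 328, 324 and 315 TPM in control libraries. GD replicate 3 was the lowest GD library and still lay well above every control library (2.55, SE 0.19, adjusted p = 4.97e-08). Sdf2l1, a cofactor of BiP, had 506, 531 and 557 TPM in GD libraries, against 68.6, 72.3 and 75.9 TPM in control libraries (2.86, SE 0.16, adjusted p = 3.31e-09). The calcium-binding lectin chaperone Calr rose by 1.9 (SE 0.13), Hsp90b1, the ER member of the HSP90 family, by 1.82 (SE 0.13), and the secreted ER factor Manf by 1.81 (SE 0.10). Dnajc3 (2.28) and Dnajb9 (1.75), cochaperones of BiP, rose in all 3 GD libraries relative to all 3 control libraries.

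Disulfide and degradation genes were mixed as deposited. Of 10 disulfide enzymes 5 rose and 4 fell, and 6 were higher and 3 lower with median-of-ratios scaling. Of 11 degradation genes 4 rose and 6 fell, whereas that scaling put 7 higher and 1 lower. Pdia4 rose by 1.32 (SE 0.12) and Herpud1, a degradation factor, by 1.6 (SE 0.11), whereas the thioredoxin-type enzyme Txndc5 fell by 1.57 (SE 0.09) and the mannosidase-like Edem3 fell by 1.61 (SE 0.16). The sensor Ern1, which splices Xbp1 RNA, rose by 0.91 (SE 0.16). Xbp1 had 76.1, 80.4 and 70.3 TPM in GD libraries, against 92.2, 89.03 and 91.1 TPM in control libraries, a change of -0.26 (SE 0.08) that becomes 0.49 after median-of-ratios scaling, and its splicing cannot be read from a value per gene.

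The ER stress element, CCAAT and CCACG with 9 bases of any kind between them, on either strand, stood in 7 of 30 promoters of the ER list, against 0.164% of the 9163 promoters of tested genes. The 7 were those of Hspa5, Hsp90b1, Calr, Canx, Dnajc3, Creld2 and Ero1b. The promoters of Hspa5 (chr3:38452766-38453065 on the plus strand) and Hsp90b1 (chr7:23012244-23012543 on the minus strand), of the same length and build, are shown with the element in capitals because they encode the ER members of the HSP70 and HSP90 families.

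Hspa5: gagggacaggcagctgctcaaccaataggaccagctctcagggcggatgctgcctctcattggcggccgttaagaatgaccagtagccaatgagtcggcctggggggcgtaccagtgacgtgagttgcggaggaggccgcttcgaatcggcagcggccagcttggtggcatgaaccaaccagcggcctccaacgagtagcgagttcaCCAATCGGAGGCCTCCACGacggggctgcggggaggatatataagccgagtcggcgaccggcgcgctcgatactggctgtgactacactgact

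Hsp90b1: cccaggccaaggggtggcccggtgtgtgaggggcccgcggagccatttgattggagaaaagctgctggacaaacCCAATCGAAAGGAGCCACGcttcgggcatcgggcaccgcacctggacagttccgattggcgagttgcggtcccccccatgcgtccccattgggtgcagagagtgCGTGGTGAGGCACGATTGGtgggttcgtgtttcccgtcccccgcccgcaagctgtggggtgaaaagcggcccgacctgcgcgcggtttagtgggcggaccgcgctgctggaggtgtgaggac

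Hspa5 held 1 match 43 bases before the start, and Hsp90b1 held 2, which began 176 and 72 bases before it.

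Of 42 genes that build, transfer or trim N-linked glycans, 3 rose and 29 fell (median -0.52), although 20 were higher and 14 lower with median-of-ratios scaling. Gmppb, which makes the mannose donor, had 2.34, 2.55 and 1.91 TPM in GD libraries, against 17.5, 20.9 and 19.3 TPM in control libraries (-2.63, SE 0.14). Gfpt1, which commits fructose 6-phosphate to hexosamines, fell by 1.66 (SE 0.14), and Pgm3, the next mutase of that pathway, fell by 2.08 (SE 0.12). Of 16 hexosamine genes 4 rose and 8 fell, a balance that turned to 9 higher and 4 lower under the same scaling. Those that rose included Gnpda2, a glucosamine 6-phosphate deaminase, at 1.15 (SE 0.12) and Renbp, which epimerises amino sugars, at 0.75 (SE 0.07). Mgea5, which removes single N-acetylglucosamine residues from proteins, had 3.79, 3.87 and 3.22 TPM in GD libraries, against 36.8, 35.7 and 36.9 TPM in control libraries. Its change of -3.02 (SE 0.12) was the deepest in the list.

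Lysosomes acidify through the vacuolar proton pump, of which 11 of 19 tested subunits rose and 4 fell, with a median of 0.45, against 16 higher and 3 lower with median-of-ratios scaling. Atp6v1c1, a peripheral subunit that regulates assembly, had 341, 312 and 296 TPM in GD libraries, against 76.2, 69.9 and 66.8 TPM in control libraries. The groups stood apart by 2.14 (SE 0.07, adjusted p = 3.88e-11). Atp6v0b, a proteolipid of the membrane ring, had 562, 542 and 586 TPM in GD libraries, against 183, 198 and 194 TPM in control libraries (1.55, SE 0.07), and Atp6v1h, another assembly subunit, rose by 1.5 (SE 0.10). Those that fell included Atp6v1g2 (-1.15) and Atp6v0a2 (-1.31), and the accessory gene Atp6ap1 (-0.44, which becomes 0.32 after median-of-ratios scaling).

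Among genes that report nutrients to mTORC1 at the lysosome, 11 of 28 rose and 15 fell, whereas 16 were higher and 6 lower with median-of-ratios scaling. Rragd, a Rag GTPase induced by TFEB and TFE3, had 14.5, 13.5 and 11.5 TPM in GD libraries, against 2.45, 2.74 and 2.45 TPM in control libraries (2.0, SE 0.12, adjusted p = 5.12e-09). Another Rag GTPase gene, Rragc (0.96, SE 0.10), the anchor Lamtor1 (0.74, SE 0.06), the folliculin gene Flcn (0.36, SE 0.11) and Tfe3 (0.68, SE 0.09) rose with Rragd. The kinase itself moved down, with 3.75, 4.03 and 2.6 TPM in GD libraries, against 11.3, 11.3 and 10.2 TPM in control libraries for Mtor (-1.43, SE 0.13), and so did its adaptor Rptor (-1.24, SE 0.10). The sestrin genes Sesn1 (-1.43) and Sesn3 (-1.94) fell. None of 11 AMPK genes rose and 10 fell, among them Prkag1, a gamma subunit (-1.31, SE 0.07), and that scaling left 7 lower and put 3 higher. The calcium channel of lysosomes Mcoln1, which feeds back on TFEB, had 142, 150.1 and 149 TPM in GD libraries, against 35.3, 41.6 and 36.99 TPM in control libraries (1.93, SE 0.08). Of 27 promoters of lysosomal genes 6 held the letters TCACGTG, a core of the element that TFEB and TFE3 recognise, against 5.89% of tested promoters, and the 6 were those of Lamp1, Mcoln1, Ctsd, Gaa, Glb1 and Idua.

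In the autophagy list 11 of 36 genes rose and 19 fell, a balance that turned to 21 higher and 9 lower with median-of-ratios scaling. Gabarapl1, which encodes a membrane-tagging ATG8 protein, had 175, 177 and 162 TPM in GD libraries, against 47.6, 51.1 and 45.98 TPM in control libraries (1.8, SE 0.06), and the receptors Optn (1.59, SE 0.10) and Nbr1 (1.21, SE 0.12) and the mitophagy receptor Bnip3 (1.34, SE 0.11) rose. Among those that fell were the conjugation enzyme gene Atg7 at -1.09 (SE 0.09) and the lipid-binding Wipi1 at -1.57 (SE 0.11). Within each library the ratio of Gabarapl1 to Map1lc3b was 0.382 to 0.384 in GD libraries, against 0.129 to 0.140 in control libraries.

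**Figure D3:**
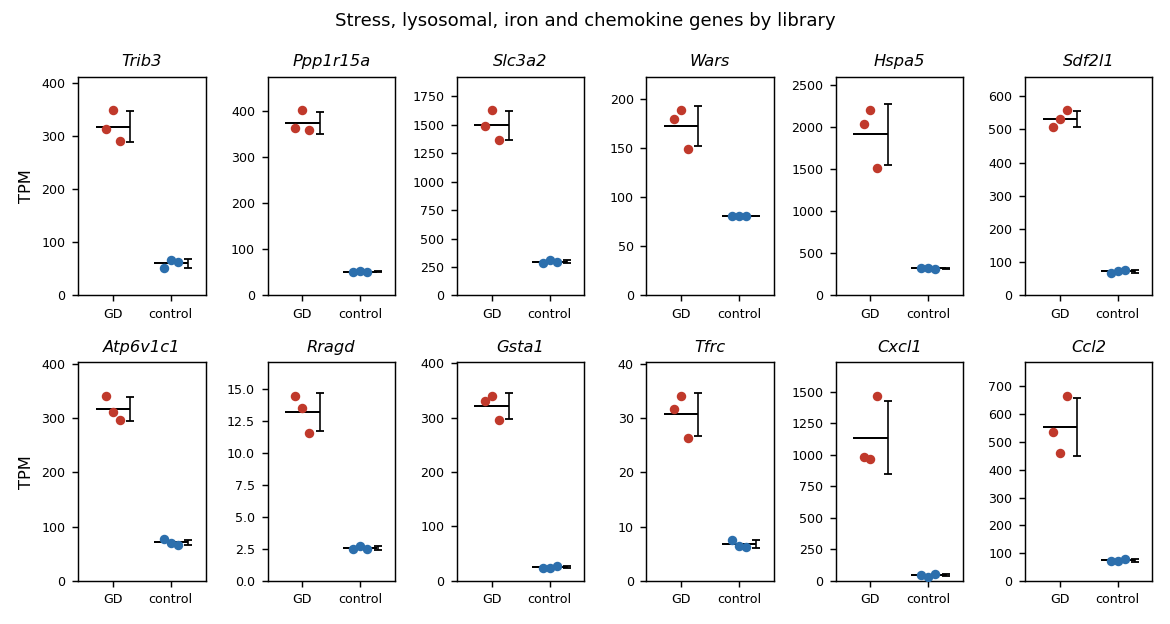
TPM (vertical axes, from 0) of 12 genes in each GD library (red, left) and control library (blue, right), with the mean (line) and SD (bar, n = 3). For every gene shown all 3 GD libraries lie above all 3 control libraries, and for Cxcl1 and Ccl2 GD replicate 3 was the highest.

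Of 32 genes of glucose uptake, glycolysis and lactate handling 3 rose and 25 fell, with a median of -0.91, and 9 were higher and 16 lower with median-of-ratios scaling. Pfkm, the muscle phosphofructokinase, had 12.8, 12.3 and 10.1 TPM in GD libraries, against 131, 132 and 127 TPM in control libraries. All 3 GD libraries were far below control (-3.37, SE 0.18, adjusted p = 1.44e-09). Ldhb had 71.4, 79.5 and 74.2 TPM in GD libraries, against 633, 643 and 639 TPM in control libraries, and Ldha, the other lactate dehydrogenase subunit, fell by a like amount (-3.07, SE 0.11, and -2.94, SE 0.07). Hk1, the first enzyme of glycolysis in most cells, fell by 2.08 (SE 0.09), Pfkl, the liver-type phosphofructokinase, fell by 2.0 (SE 0.09) and the insulin-responsive transporter Slc2a4 fell by 2.06 (SE 0.16). Gapdh, a common normaliser, had 1707, 1719.8 and 1800.4 TPM in GD libraries, against 3299, 3445 and 3498 TPM in control libraries (-0.97, SE 0.04; -0.21 after median-of-ratios scaling). Eno2, the neuronal enolase, was one of the 3 that rose (0.49, SE 0.08), beside the lactate carrier Slc16a1 and the kinase-phosphatase Pfkfb2, neither of which passed without GD replicate 1 or without GD replicate 2, nor Pfkfb2 without control replicate 3, while the muscle enolase Eno3 fell by 2.89 (SE 0.16).

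Of 14 glycogen genes 4 rose and 9 fell, and 6 were higher and 8 lower with median-of-ratios scaling. Stbd1, which tethers glycogen for delivery to lysosomes, had 95.95, 100.4 and 75.02 TPM in GD libraries, against 38.9, 37.01 and 39.7 TPM in control libraries (1.2, SE 0.16). The synthase Gys1 (-1.66, SE 0.15), the phosphorylase Pygb (-1.67, SE 0.09) and Pgm1, which links glycogen to glycolysis (-2.4, SE 0.15), fell.

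The non-oxidative steps of the pentose phosphate pathway exchange carbon between pentoses and glycolytic intermediates. Taldo1, the transaldolase, had 915, 917 and 899 TPM in GD libraries, against 398, 428 and 394 TPM in control libraries. Tkt, the transketolase, had 309, 308 and 318 TPM in GD libraries, against 135, 141 and 138 TPM in control libraries. Both changed by nearly the same amount (1.16, SE 0.07, and 1.17, SE 0.08), and Rpia, the ribose phosphate isomerase, rose by 1.36 (SE 0.13). Taldo1, Tkt and Rpia were the 3 that rose of 11 genes tested in the list, and 4 fell, whereas 10 were higher and 1 lower with median-of-ratios scaling.

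Both subunits of the mitochondrial pyruvate carrier rose, Mpc1 with 211, 189 and 196 TPM in GD libraries, against 108, 103 and 106 TPM in control libraries (0.9, SE 0.06) and Mpc2 by 0.29 (SE 0.06). Slc25a33, which carries pyrimidine nucleotides into mitochondria, had 56.6, 59.8 and 50.5 TPM in GD libraries, against 10.97, 10.8 and 11.02 TPM in control libraries (2.24, SE 0.10, adjusted p = 2.81e-10). The citrate carrier Slc25a1 moved down, with 34.2, 37.6 and 34.3 TPM in GD libraries, against 145, 160.4 and 145 TPM in control libraries (-2.06, SE 0.07). None of 19 citric acid cycle genes rose and 16 fell (median -0.73), whereas 7 were higher and 6 lower with median-of-ratios scaling (median 0.03). Idh2, a dehydrogenase of the cycle, was the lowest by fold change (-1.92, SE 0.13). Of 35 complex I subunits 2 rose and 31 fell, although 17 were higher and 5 lower with median-of-ratios scaling. Of 37 nuclear subunits of complexes III to V 3 rose and 28 fell, and that scaling turned this to 23 higher and 3 lower. Cox6a2, the muscle form of a cytochrome oxidase subunit, was one of the 3 that rose, with 863, 908 and 882 TPM in GD libraries, against 219, 227 and 219 TPM in control libraries (1.99, SE 0.10). Genes encoded in mitochondrial DNA were not analysed here.

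Of 27 fatty acid oxidation genes 5 rose and 19 fell, shares near those of all tested genes, and 13 were higher and 11 lower with median-of-ratios scaling. Acadl, the long-chain acyl-CoA dehydrogenase, had 109.6, 119 and 98.1 TPM in GD libraries, against 52.7, 47.6 and 49.8 TPM in control libraries (1.1, SE 0.07). Acadvl, its very-long-chain relative, had 2.25, 2.09 and 1.68 TPM in GD libraries, against 24.4, 22.6 and 25.5 TPM in control libraries (-3.07, SE 0.12). The 2 dehydrogenases thus moved in opposite directions with no overlap of groups in either. Hadhb, the thiolase subunit of the trifunctional protein, rose by 0.77 (SE 0.07), while Hadh fell by 2.47 (SE 0.15) and the uncoupling protein gene Ucp2 fell by 3.08 (SE 0.13). Angptl4, a secreted inhibitor of lipoprotein lipase that fatty acids and fasting induce, had 6.36, 7.75 and 11.2 TPM in GD libraries, against 0.3, 0.33 and 0.29 TPM in control libraries (2.82, SE 0.24). In the opposite pathway, 33 of 35 sterol and fatty acid synthesis genes fell and 1 rose (median -1.75). With median-of-ratios scaling 29 of them were lower and 4 higher. Elovl6, a fatty acid elongase, had 0.06, 0.12 and 0.05 TPM in GD libraries, against 13.8, 10.4 and 11.1 TPM in control libraries. Its groups did not overlap. The gene that rose was Insig1, which retains the sterol sensor in the ER (0.44, SE 0.09).

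Iron genes changed on both the storage and the uptake side. Tfrc, the transferrin receptor, had 31.7, 34.1 and 26.3 TPM in GD libraries, against 7.6, 6.42 and 6.18 TPM in control libraries (2.03, SE 0.11, adjusted p = 2.57e-09). Fth1, the ferritin heavy chain, had 22389, 21901 and 26123 TPM in GD libraries, against 6281, 6549 and 6465 TPM in control libraries (1.86, SE 0.08). Both genes lay higher in every GD library than in any control library. Slc25a37, the mitochondrial iron importer, rose by 1.97 (SE 0.19) and the iron transporter Slc11a2 by 0.38 (SE 0.11). The genes of both iron regulatory proteins, Aco1 (-1.69, SE 0.11) and Ireb2 (-1.46, SE 0.13), and the ferritin autophagy receptor Ncoa4 (-1.1, SE 0.10) fell. Of 17 iron genes 6 rose and 10 fell, a balance that turned to 11 higher and 5 lower with median-of-ratios scaling. Mt1, a metallothionein that binds zinc and copper, had 375, 407 and 441 TPM in GD libraries, against 73.5, 72.5 and 74.4 TPM in control libraries (2.45, SE 0.15), and the 12 other tested genes of the metallothionein and zinc transporter list all fell. That scaling put 3 of the list's 13 genes higher and 6 lower.

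Of 36 glutathione and thioredoxin genes 13 rose and 15 fell, whereas 23 were higher and 8 lower with median-of-ratios scaling. Gsta1, a glutathione transferase outside that list, was among the 20 tested genes with the highest fold change, with 330.4, 340.4 and 295 TPM in GD libraries, against 24.1, 24.1 and 26.8 TPM in control libraries (3.63, SE 0.07, adjusted p = 7.31e-13), and reads of near-identical family members may be shared between its copies. Nqo1, a quinone reductase, had 409, 391 and 314 TPM in GD libraries, against 96.3, 95.5 and 90.6 TPM in control libraries (1.96, SE 0.18), and Gclc, the limiting enzyme of glutathione synthesis, rose by 1.8 (SE 0.14). Mgst3, a membrane glutathione transferase, ran against them with 8.83, 9.96 and 7.26 TPM in GD libraries, against 308, 301 and 326 TPM in control libraries (-5.02, SE 0.17, adjusted p = 5e-11). The glutathione peroxidase genes Gpx1 (-1.73) and Gpx7 (-2.07) and the extracellular dismutase Sod3 (-3.19) fell, whereas the cytosolic dismutase Sod1 rose (0.91, SE 0.04).

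Ribosomal protein messages begin with a terminal oligopyrimidine tract, which ties their translation to mTORC1. Of 82 tested cytosolic ribosomal protein genes 77 rose and 2 fell, with a median of 0.97, and 14 of 19 other genes of that class rose and 3 fell (17 higher and none lower with median-of-ratios scaling). Tpt1, the translationally controlled tumour protein, had 4349.7, 4005 and 4349 TPM in GD libraries, against 1547, 1524 and 1477 TPM in control libraries (1.48, SE 0.05), and Naca, a chaperone subunit at the ribosome exit, rose by 1.22 (SE 0.04). Many ribosomal protein genes have processed copies in the genome, so their split between rows is uncertain, and Rpl35a had 10.7, 5.24 and 11.1 TPM in GD libraries and was listed at 0 in all 3 control libraries, which allows no fold. The host RNA Gas5, which carries small nucleolar RNAs in its introns and whose spliced form is degraded during translation, had 2473, 2212 and 2227 TPM in GD libraries, against 278, 256 and 276 TPM in control libraries (3.09, SE 0.08, adjusted p = 7.43e-12). Of 43 initiation factors 18 rose and 20 fell (median -0.15), whereas 29 were higher and 4 lower with median-of-ratios scaling (median 0.61). Eif1 (1.11, SE 0.05) and Eif3m (1.13, SE 0.07) rose, and the scaffold Eif4g1 had 44.4, 49.6 and 33.4 TPM in GD libraries, against 133, 138 and 125 TPM in control libraries (-1.63, SE 0.12).

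Splicing regulators fell, 25 of 28 SR and hnRNP genes against 1 that rose, and 17 were lower and 5 higher with median-of-ratios scaling (median -1.07 as deposited). Srsf2 had 19.4, 20.9 and 19.3 TPM in GD libraries, against 122, 108 and 108 TPM in control libraries (-2.45, SE 0.12), and Srsf7 fell by 1.89 (SE 0.10). The largest subunit of RNA polymerase II, Polr2a, had 8.37, 10.7 and 5.97 TPM in GD libraries, against 47.3, 53.5 and 52.04 TPM in control libraries (-2.5, SE 0.15), while the small subunit Polr2k rose by 0.75 (SE 0.07).

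Of 10 tested chemokines 5 rose and 1 fell, with a median of 0.86. Ccl2, a monocyte attractant, had 535, 459 and 666 TPM in GD libraries, against 70.6, 72.01 and 79.01 TPM in control libraries (2.87, SE 0.20, adjusted p = 1.67e-08). Ccl7, a related attractant, rose by 1.22 (SE 0.15) and Cx3cl1, a membrane-bound chemokine, by 1.57 (SE 0.21). In every GD library the ratio of Cxcl1 to Cxcl12 exceeded 100 (106 to 176), against 0.0640 to 0.101 in control libraries. The promoter of Cxcl1 (chr14:17479272-17479571 on the minus strand) is shown with 2 matches to GGG, any 2 bases and TTTCC, a form of the element that NF-kappaB binds, in capitals. They began 102 and 84 bases before the start, the first on the opposite strand.

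Cxcl1: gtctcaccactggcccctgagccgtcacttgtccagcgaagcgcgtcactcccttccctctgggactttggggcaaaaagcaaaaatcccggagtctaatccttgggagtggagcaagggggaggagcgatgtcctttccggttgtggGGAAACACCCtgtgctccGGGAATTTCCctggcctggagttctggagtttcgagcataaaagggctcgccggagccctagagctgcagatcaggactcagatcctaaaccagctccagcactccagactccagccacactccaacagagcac

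Such a match stood in 3 of 9 chemokine promoters (Cxcl1, Cxcl2 and Ccl20) and in 7 of 23 promoters of inflammatory genes (Il6, Nfkb1, Nfkb2, Rel, Nfkbia, Nfkbiz and Tnfaip3), against 1.68% of tested promoters.

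Of 28 inflammatory effectors and NF-kappaB genes 13 rose and 9 fell, and 20 were higher and 4 lower with median-of-ratios scaling. Nfkbia, the feedback inhibitor of NF-kappaB, had 68.6, 87.9 and 106 TPM in GD libraries, against 32.9, 27.5 and 29.8 TPM in control libraries, with GD replicate 3 the highest and no overlap with control (1.49, SE 0.17). Birc3, a ubiquitin ligase of TNF signalling, had 13.6, 13.8 and 15.1 TPM in GD libraries, against 1.45, 1.58 and 1.52 TPM in control libraries (2.59, SE 0.15), and Relb, a subunit of the slower branch, rose by 2.25 (SE 0.18). Il23a, a subunit of interleukin 23, had 21.01, 24.9 and 23.1 TPM in GD libraries, against 1.16, 1.15 and 1.35 TPM in control libraries (3.43, SE 0.21). Il33, a cytokine of the interleukin 1 family, had 0.02, 0.02 and 0.02 TPM in GD libraries, against 11.7, 10.04 and 9.54 TPM in control libraries. The genes of its receptor, Il1rl1 (-3.56, SE 0.10), and of the interleukin 1 receptor, Il1r1 (-3.03, SE 0.11), fell. Csf2, a myeloid growth factor, had 0.96, 1.62 and 3.32 TPM in GD libraries and was listed at 0 in all 3 control libraries.

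Of 29 interferon-response genes 10 rose and 16 fell, a balance that turned to 14 higher and 8 lower with median-of-ratios scaling. The peptide transporter Tap1 had 56.5, 64.8 and 63.7 TPM in GD libraries, against 22.3, 25.2 and 23.5 TPM in control libraries (1.34, SE 0.11), the GTPase Gbp2 rose by 2.0 (SE 0.22) and the class I subunit B2m by 0.73 (SE 0.08). Irf7, a transcription factor of the pathway, had 9.43, 9.75 and 10.8 TPM in GD libraries, against 62.8, 77.4 and 68.7 TPM in control libraries (-2.68, SE 0.13).

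Of 21 tested collagen chains 20 fell and none rose, with a median of -2.85, and the one that did not pass was Col22a1 (-0.38, SE 0.28). Col1a1, the main chain of fibrillar type I collagen, had 555, 756 and 414 TPM in GD libraries, against 8327, 9452 and 9113 TPM in control libraries. Col5a1, which starts fibrils, had 8.84, 12.7 and 6.58 TPM in GD libraries, against 379, 416 and 404 TPM in control libraries. In both, GD replicate 3 was the lowest library (-4.0, SE 0.22, and -5.31, SE 0.22). The row NEWGENE_621351, described in the table as collagen type I alpha 2, had 902, 1168 and 676 TPM in GD libraries, against 7989, 8791 and 8489.6 TPM in control libraries. This row is not among the 21 chains counted. The basement membrane chain Col4a1 fell by 3.1 (SE 0.15), and the microfibril chain Col6a3 fell by 4.69 (SE 0.23).

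All 20 tested genes of collagen processing fell, and 17 remained lower with median-of-ratios scaling. Lox, the enzyme that cross-links collagen and elastin, had 1.09, 1.36 and 0.73 TPM in GD libraries, against 97.96, 90.99 and 90.2 TPM in control libraries (-5.52, SE 0.14, adjusted p = 4.98e-12). Crtap, a cofactor of prolyl hydroxylation, fell by 2.83 (SE 0.10) and Plod2, a lysyl hydroxylase, fell by 2.76 (SE 0.15). Timp1, an inhibitor of matrix metalloproteases, had 31.9, 36.2 and 33.97 TPM in GD libraries, against 222, 234 and 229 TPM in control libraries (-2.71, SE 0.08). None of 22 matrix protease and inhibitor genes rose and 20 fell. Of 33 matrix glycoproteins and proteoglycans 31 fell, and 28 were lower and 2 higher with that scaling. Spp1, osteopontin, was the only one to rise. It had 317, 322 and 261 TPM in GD libraries, against 153, 148 and 146 TPM in control libraries (1.0, SE 0.08).

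Of 15 integrin chains, the cell's receptors for matrix, 12 fell and none rose, although 3 were higher after median-of-ratios scaling. Itgb5 had 24.5, 28.4 and 20.1 TPM in GD libraries, against 289, 312 and 297 TPM in control libraries (-3.58, SE 0.19), and Itga7, the laminin receptor of muscle, had 61.3, 72.5 and 54.4 TPM in GD libraries, against 439, 486 and 467 TPM in control libraries (-2.88, SE 0.10). Itgb1, the common beta chain, fell by 1.5 (SE 0.12). Of 36 genes of the TGF-beta and BMP pathway 30 fell and 1 rose, and 26 were lower and 8 higher after that scaling. Id3, an early target of BMP signals, had 8.34, 9.51 and 7.75 TPM in GD libraries, against 226, 210.1 and 216 TPM in control libraries (-4.52, SE 0.10), and the antagonist Fst (-4.33, SE 0.19) fell. The one that rose was the ligand Bmp6 (0.81, SE 0.19).

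All 38 tested contractile and cytoskeletal genes fell, with a median of -2.56, and 35 remained lower after median-of-ratios scaling. Acta2, smooth-muscle actin, had 155, 156 and 165 TPM in GD libraries, against 5758, 6008 and 6072 TPM in control libraries. Actb, the general cytoplasmic actin and a common normaliser, had 1182, 1282 and 1143 TPM in GD libraries, against 8542, 8938 and 8844 TPM in control libraries. Their log2 fold changes were -5.22 (SE 0.08) and -2.87 (SE 0.07), and reads may be shared between near-identical actin genes. Within libraries the ratio of Actg1 to Acta2 was 5.32 to 5.58 in GD libraries, against 0.489 to 0.509 in control libraries. The calcium-binding S100 genes had no member that rose and 7 of 9 that fell (5 lower and 1 higher with median-of-ratios scaling), with S100a4 at 829, 805 and 799.9 TPM in GD libraries, against 4102, 4119 and 4172 TPM in control libraries.

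**Figure D4:**
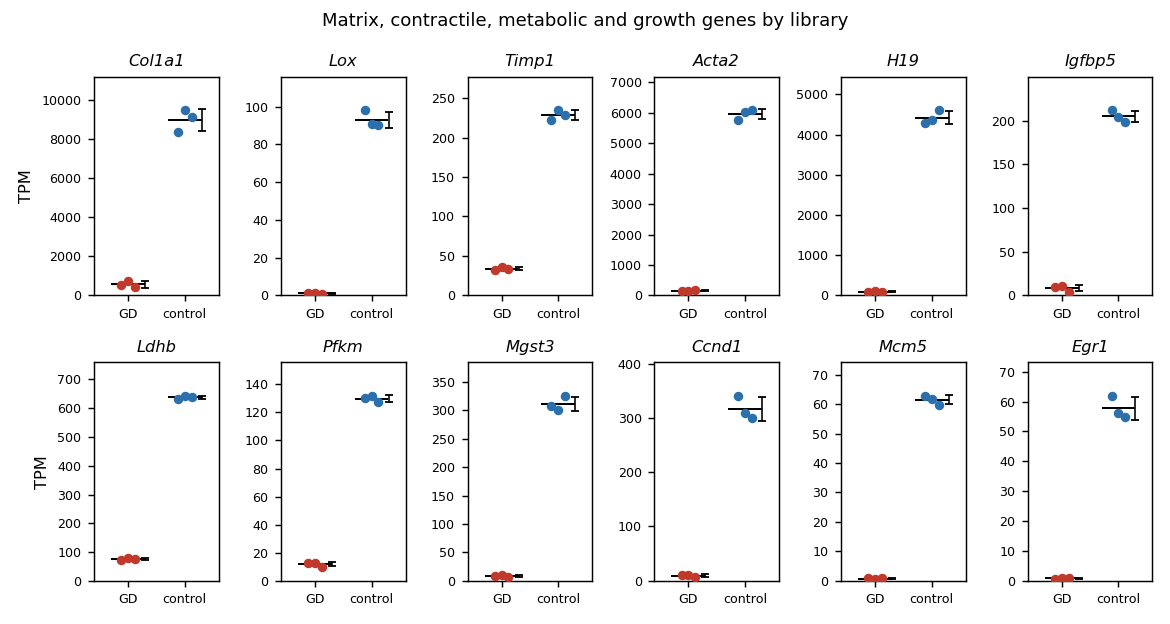
TPM (vertical axes, from 0) of 12 genes in each GD library (red, left) and control library (blue, right), with the mean (line) and SD (bar, n = 3). For every gene shown all 3 GD libraries lie below all 3 control libraries, and Egr1, Mcm5 and Lox are near the bottom of the axis in GD.

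Checked against markers, the labelled heart muscle type had thin support in either group. Of 10 cardiomyocyte markers 3 were tested (Tnnt2, Pln and Gata4) and all 3 fell, and the others, among them Myh6, Nppa, Ryr2 and Nkx2-5, stayed under the limit of 1 TPM in 3 libraries. Of 10 skeletal myoblast markers 7 were tested and all fell. Myod1, which sets the muscle lineage, had 2.95, 2.87 and 1.41 TPM in GD libraries, against 61.5, 61.4 and 53.3 TPM in control libraries, and Myog, which drives its differentiation, had 0.12, 0.17 and 0.04 TPM in GD libraries, against 19.1, 20.6 and 21.8 TPM in control libraries. All 6 smooth-muscle markers were tested and fell, with summed levels of 271 to 286 TPM in GD libraries, against 8573 to 8974 TPM in control libraries. Of markers of other cell types, 3 of 8 fibroblast, 1 of 8 endothelial, 3 of 8 leukocyte and 1 of 6 epithelial genes were tested, and each of these fell. The defining genes Pecam1, Ptprc and Epcam were at or near 0 in both groups. Most of the fibroblast sum was Col1a1, described above among the collagens. Col1a1 alone had 414 to 756 TPM in GD libraries, against 8327 to 9452 TPM in control libraries. Summed levels of the fibroblast list were 511 to 883 TPM in GD libraries, against 9308 to 10490 TPM in control libraries. Those of the leukocyte list were 4.57 to 7.38 TPM in GD libraries, against 36.1 to 39.3 TPM in control libraries, and those of the epithelial list 15.1 to 15.9 TPM in GD libraries, against 57.1 to 63.8 TPM in control libraries. The part of these markers in the other changes was not tested.

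H19, an imprinted noncoding RNA of embryonic muscle, had 87.5, 107 and 86.2 TPM in GD libraries, against 4289, 4371 and 4599 TPM in control libraries (-5.55, SE 0.14, adjusted p = 5.31e-12). Igf2, its imprinted neighbour that encodes insulin-like growth factor 2, fell by 1.85 (SE 0.15). Igfbp5, which binds that growth factor, had 9.89, 10.7 and 4.17 TPM in GD libraries, against 212, 204 and 199 TPM in control libraries, with GD replicate 3 the lowest (-4.57, SE 0.38). All 10 tested genes of the IGF axis fell, and 7 were lower and none higher with median-of-ratios scaling. Of 28 growth factor genes 3 rose (Vegfb, Vegfa and Fgf7) and 22 fell, against 4 higher and 17 lower with that scaling. Vegfa and Fgf7 did not pass when any single control library, GD replicate 1 or GD replicate 2 was left out.

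Of 25 genes of cell cycle entry 3 rose and 21 fell, and 6 were higher and 17 lower with median-of-ratios scaling. Ccnd1, the cyclin that answers to growth factors, had 10.03, 11.3 and 6.86 TPM in GD libraries, against 341, 309 and 299 TPM in control libraries (-4.95, SE 0.17, adjusted p = 4.63e-11). Myc, a driver of growth, had 28.5, 29.7 and 26.6 TPM in GD libraries, against 7.7, 8.84 and 9.69 TPM in control libraries (1.59, SE 0.12). Its relative Mycn fell by 3.79 (SE 0.14), and the retinoblastoma gene Rb1 rose by 1.06 (SE 0.14). Gadd45a, a stress-induced growth arrest gene, had 1053, 1019.6 and 856 TPM in GD libraries, against 119.9, 120.3 and 118 TPM in control libraries. The cell cycle inhibitor Cdkn1a had 141, 155 and 146 TPM in GD libraries, against 258, 269 and 260.4 TPM in control libraries. The groups of both were apart, Gadd45a upward and Cdkn1a downward (-0.83, which becomes -0.07 after median-of-ratios scaling and does not pass). Egr1, an immediate-early gene that serum induces within minutes, had 0.59, 0.99 and 0.82 TPM in GD libraries, against 61.9, 56.2 and 54.98 TPM in control libraries (-5.03, SE 0.16). Fos fell by 3.06 (SE 0.20). Of 17 immediate-early genes 3 rose and 12 fell, shares near those of all tested genes (6 higher and 9 lower with median-of-ratios scaling).

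None of 37 DNA replication genes rose and 35 fell (median -1.91), and of 31 mitosis genes none rose and 30 fell. With median-of-ratios scaling 32 replication genes were lower and 2 higher, and 30 mitosis genes were lower. Mcm5, a subunit of the replicative helicase, had 0.79, 0.56 and 0.8 TPM in GD libraries, against 62.8, 61.8 and 59.8 TPM in control libraries (-5.19, SE 0.14, adjusted p = 5.5e-12). Another subunit, Mcm2, fell by 1.39 (SE 0.10), a smaller change than that of Mcm5 within the same complex. The E2F element TTTNGCGC, on either strand, stood in 14 of 31 replication promoters, against 2.39% of tested promoters and 1 of 26 promoters of mitosis genes. By direction of change, it stood in 2.37% of promoters of all genes that fell and 1.97% of those of all genes that rose. The promoter of Mcm5 (chr19:13488563-13488862 on the plus strand) held 2 overlapping matches, one on each strand, in capitals, the first beginning 213 bases before the start.

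Mcm5: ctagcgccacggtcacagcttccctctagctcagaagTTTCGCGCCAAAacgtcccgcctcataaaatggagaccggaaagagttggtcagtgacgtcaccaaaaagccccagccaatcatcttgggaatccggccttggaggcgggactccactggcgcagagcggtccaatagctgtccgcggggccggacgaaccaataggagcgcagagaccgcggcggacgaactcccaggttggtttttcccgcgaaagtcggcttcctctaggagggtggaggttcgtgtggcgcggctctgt

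Of 14 BCL2 family genes 1 rose and 10 fell, a share of falls near that of all tested genes. With median-of-ratios scaling the balance turned to 6 higher and 4 lower. The survival gene Bcl2l1 had 108, 122 and 113 TPM in GD libraries, against 77.3, 86.9 and 78.4 TPM in control libraries (0.49, SE 0.10, adjusted p = 0.000468). The death activators Bmf (-3.3, SE 0.22) and Bcl2l11 (-1.29, SE 0.12) fell. The small heat shock genes Hspb7 (-4.59, SE 0.15) and Cryab (-2.09, SE 0.13), chaperones of muscle, fell, and Hspa8, the constitutive HSP70, had 2887, 2863 and 2677 TPM in GD libraries, against 1486, 1467 and 1408 TPM in control libraries (0.95, SE 0.05). Of 15 clock genes 4 rose and 8 fell (8 higher and 3 lower after that scaling), with Dbp, an output gene, at 1.09 (SE 0.16) and Arntl, the core activator, at -1.24 (SE 0.12).

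Some genes were present in one group alone by a fixed limit, at or above 1 TPM in every library of one group and below 0.1 TPM in every library of the other. In the GD group these were 4 rows, among them Cyth4, 1 of the 2 rows named Gbp5, and Rpl35a. The other Gbp5 row did not meet the limit, and the split of Rpl35a from processed copies is uncertain. In the control group they were 69, among them the replication factors Cdc6 and Mcm10, the factors E2f2, E2f7 and E2f8, the cardiac calcium pump regulator Pln and the matrix gene Thbs2. B4gat1, which primes a matrix-binding sugar on dystroglycan, was listed at 0 in all 3 GD libraries, against 32.6, 35.9 and 28.7 TPM in control libraries.

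Ratios of 2 genes within a library hardly depend on how the library was scaled. Of 18 pairs compared, 16 did not overlap between the groups, against 82.4% of single tested genes. Each of these 16 pairs reached 0.1, the smallest two-sided p of an exact permutation test of 3 against 3 libraries (adjusted 0.1125 over the pairs). The ratio of Ccnd1 to Ccnd2 was 0.317 to 0.380 in GD libraries, against 2.88 to 3.04 in control libraries. Atf4 relative to Xbp1 was 10.5 to 11.1 in GD libraries, against 3.99 to 4.12 in control libraries. Fth1 relative to Ftl1 was 0.930 to 1.06 in GD libraries, against 0.779 to 0.817 in control libraries. The pro-death Bcl2l11 relative to the survival gene Bcl2l1 was 0.0367 to 0.0461 in GD libraries, against 0.159 to 0.163 in control libraries. Ldha relative to Ldhb was 1.37 to 1.66 in GD libraries, against 1.31 to 1.36 in control libraries, a small shift beside the fall of both. Igf2 to Igf1 was among the pairs that overlapped.

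The remaining lists are given by their counts, to be read against the 14% of tested genes higher and the 67.6% lower as deposited, and the 38% higher and 38.7% lower with median-of-ratios scaling. In several of them the balance turned with that scaling. Of 73 mitochondrial ribosomal proteins 9 rose and 42 fell as deposited, against 52 higher and 8 lower when rescaled in this way. The same step took 47 proteasome subunits to 27 higher and 7 lower, where 6 rose and 35 fell as deposited. Of 24 RNA polymerase subunits 2 rose and 15 fell, against 14 higher and 4 lower when rescaled. Of 32 mitochondrial carriers 7 rose and 17 fell (18 higher and 9 lower), and of 43 Rab GTPases 7 rose and 29 fell (18 higher and 14 lower). Of 35 lysosomal enzymes and membrane proteins 13 rose and 14 fell (25 higher and 5 lower), and of 24 heat shock genes 9 rose and 10 fell (17 higher and 4 lower). In other lists it ended even or stayed downward. Of 15 genes of pyruvate entry 3 rose and 10 fell (7 higher and 7 lower), of 20 growth arrest genes 3 rose and 14 fell (8 higher and 8 lower), and of 10 nonsense-mediated decay factors 1 rose and 8 fell (2 higher and 2 lower). Of 20 genes of sodium exchange 3 rose and 16 fell (4 higher and 10 lower). Among 6 glucose-sensing genes 4 fell and none rose (4 lower and 1 higher), and among 21 skeletal muscle genes 20 fell and none rose (20 lower and 1 higher). All 17 targets of YAP type fell (16 lower), as did all 11 genes of cardiac identity and connexins (11 lower). Of 2 snoRNA host genes 1 rose and none fell.

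In all, 10 motifs were searched in the promoters on both strands, each in the lists it is known for. The sterol element TCACNCCAC was in 0 of 25 sterol and fatty acid promoters, against 1.15% of tested promoters, and the carbohydrate response element in 0 of 4 glucose-sensing promoters. The TEAD element CATTCCA was in 1 of 13 promoters of YAP type targets, against 2.63%, and the antioxidant element (TGAC, any 3 bases and GCA) in 2 of 30 glutathione promoters and 1 of 9 pentose phosphate promoters, against 2.73%. The amino acid response element was in 2 of 14 serine and one-carbon promoters and 2 of 17 transporter promoters. The letters TCACGTG were in 2 of 15 proton pump promoters and 2 of 30 autophagy promoters. The CArG box, which SRF binds, was in 3 of 32 contractile promoters, against 1.32%. It was in 1.5% of promoters of all genes that fell and 0.658% of those of all genes that rose.

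**Figure D5:**
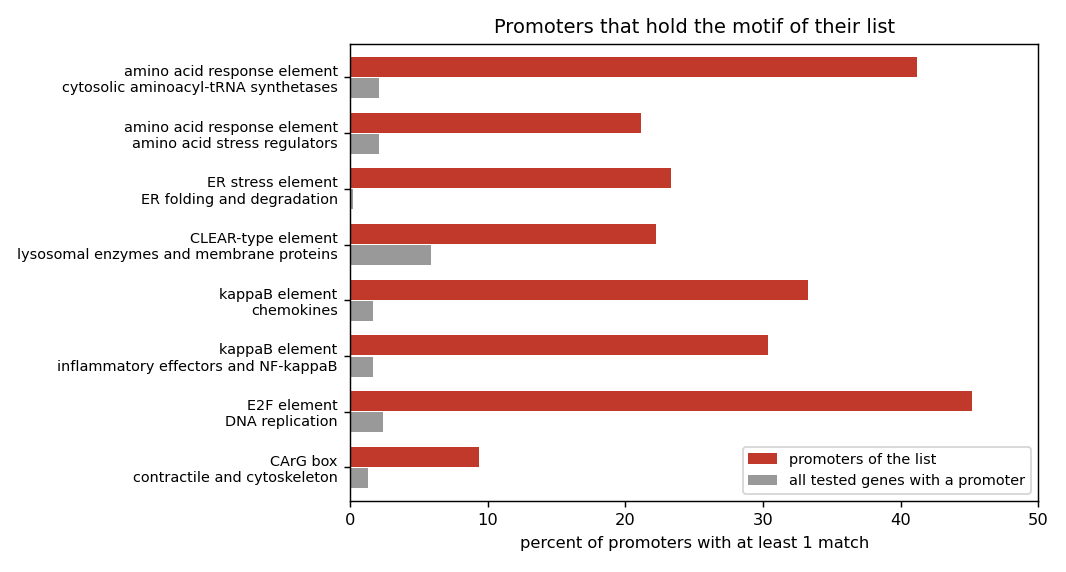
Percent of promoters with at least 1 match (horizontal axis) for 6 of the 10 motifs searched and 8 gene lists (rows), in the list (red, upper bar) and among all 9163 tested genes with a promoter (grey, lower bar). The list bars run from 9.38% for the CArG box in contractile genes to 45.2% for the E2F element in replication genes, and the grey bars from 0.164% to 5.89%.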

How the data were processed

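RNA of 12 libraries (4 groups of 3) was sequenced on an Illumina platform from total RNA, per the labels' protocols. HISAT2 and StringTie are named, per the submitters' processing notes. Their versions, the build, the annotation and the strand setting were not stated in these sources. The authors deposited 1 table of TPM, a unit read from the column totals (946400.5 to 969724.1 in the 6 libraries compared). TPM keep no depth, so no counting interval is given, and genes that overlap or have near-identical copies are uncertain.

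From these values log2(TPM + 1) was fitted with limma 3.58.1 in R 4.3.3, with a trend of the variance and 1 mean per group over all 12 libraries. Genes needed at least 1 TPM in at least 3 libraries. Tests were two-sided, with Benjamini-Hochberg adjustment over 12314 genes. The procedure was tested on simulated data in which few genes changed and the typical gene did not shift, unlike here. That test therefore does not bear on the choice of scaling. Motifs were searched on both strands, with the letters N for any base. Ratios within libraries used TPM + 0.1 and exact permutation tests. Named genes were the 20 highest and 20 lowest fold changes with a mean of at least 5 TPM, the 10 largest gains and losses of TPM, genes present in 1 group alone, and for each of 68 lists the 3 with the smallest p in each direction, with other members named by role. Not all of these are printed. Members and lists were chosen with earlier results of these data known. Promoters are RefSeq sequences of GRCr8. Alternatives were other scalings, filters, pseudocounts, limma settings, thresholds, a replicate block and leaving out each library.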

Additional observations from a re-analysis of the deposited data

How the results depend on the processing

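The count of genes changed in GD against control stayed within 1.5 times of 10042 under each alternative except the 2-fold rule, which left 4657. The counts of genes higher in GD and genes lower in GD were 464 and 4193 under that rule. After median-of-ratios scaling they were 4683 and 4768, and after quantile normalization 5094 and 4398. Rescaling without ribosomal protein and ferritin genes put 3021 higher. Leaving out 1 library gave 9685 to 9938 genes changed, 1579 to 1870 higher and 7965 to 8355 lower. Summing rows of 1 symbol, an alternative chosen after seeing the data, gave 10006. Of 18 within-library ratios of paired genes, 16 to 17 did not overlap when 1 library was left out, also chosen after seeing the data. Leaving out a library cannot lower that count below 16, so this does not test its stability.

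Of 192 named genes, 4 reversed under a scaling or weighting. The Asns log2 fold change became 0.39 (median-of-ratios), 0.220 (quantile) and 0.043 (rescaled), and the Xbp1 log2 fold change 0.49, 0.23 and 0.15 in the same order. The Atp6ap1 log2 fold change became 0.32 under median-of-ratios scaling. The Col22a1 log2 fold change, which did not pass, became 0.26 (median-of-ratios), 0.49 (quantile) and 0.10 (array weights). The cause was not tested beyond the shift of the median gene. Slc7a5, Slc16a1, Pfkfb2, Vegfa and Fgf7 lost their call when some single libraries were left out. Of 1169 recomputed list medians 27 moved, meaning by at least the SD of the fold changes within the list. Several alternatives left every fold change as it was and could not move a median. A change of sign was not part of the rule. The median of the mitochondrial ribosomal proteins was -0.22 as deposited and 0.53 with median-of-ratios scaling.

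Same-numbered replicates did not deviate together (correlations 0.14, -0.01 and 0.06), so the numbers were not taken to pair the libraries. The count of genes changed in GD against control with the replicate block was 10105, 10004 of them also called without the block.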
